A study of Mus musculus with 15 samples.

Results

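The insulin-like growth factor (IGF) family was read in alveolar macrophages through 10 genes: the ligands Igf1 and Igf2, the receptors Igf1r and Igf2r, and the binding proteins Igfbp2, Igfbp3, Igfbp4, Igfbp5, Igfbp6 and Igfbp7. Its members are the genes whose symbol the platform annotation gives to a probe as the sole gene. They hold 11 of the 17225 probes on the array and 10 of the 12909 genes named there, with 2 probes for Igf1r and 1 for each of the other 9 genes. The family was taken up because Igf1 and Igf2r differed in how they ran over the groups, so their own differences between groups are described here without a test. The other members were chosen by name.

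RNA of mouse alveolar macrophages, which patrol the airspaces of the lung, was measured on 15 spotted arrays, each set against a common reference labelled as macrophage RNA. There were 3 groups with 5 samples each: wild type mice (b6+/+Dox), mice deficient in the integrin beta6 subunit (b6-/-Dox, beta6 null), and beta6 null mice with TGFb1 restored (b6-/-TGFb+/+Dox). Doxycycline, an antibiotic used to switch inducible transgenes, had been given in all 3 groups, controls included. Strain, age, the way TGFb1 was supplied and any promoter behind it are not given in the sources used here, and no wild type mice with TGFb1 were among the samples. The sex of the mice is not in the sample labels either. Whether each array holds another animal is not labelled, so errors and p-values reflect the spread among arrays, part of which may be technical.

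Values are log2 ratios centred on each array's median and read as sample over reference. Neither this direction, which is likely given how the labels order the channels, nor the base of the logarithm, here 2, is stated. Were the ratio inverted, every sign would turn, while the groups that stand apart would stay the same. A ratio says nothing of absolute level, so members are not ranked against each other, and in bulk RNA fewer cells of a type and less RNA per cell cannot be told apart. Between 11615 and 16483 probes had a value on an array, and the SD over an array's values ran from 0.841 to 2.01. Of 22 alveolar macrophage markers, 15 had a probe, and all 15 had values in every group. The same held for every marker with a probe on the monocyte, dendritic cell, neutrophil, lung epithelium, endothelium and erythroid lists. Having a value therefore does not tell these cell types apart.

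IGF1 and IGF2 are secreted growth factors that act through the tyrosine kinase receptor encoded by Igf1r, which signals to survival and growth through IRS proteins, PI3 kinase and AKT. The receptor encoded by Igf2r does not signal in that way: it takes up IGF2 for breakdown, and as the cation-independent mannose 6-phosphate receptor it carries newly made lysosomal enzymes to lysosomes and can bind latent TGFb. The binding proteins hold IGFs outside the cell and lengthen or limit their action. Macrophages are a known source of IGF1 in lung.

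The upstream windows of Igf1, Igf2r and Igfbp3 are shown because these are the members whose levels set groups apart. Each holds the 250 bases before 1 annotated RefSeq start (GRCm38.p6), along the gene's strand: chr10:87860861-87861110 on the plus strand for Igf1, chr17:12769707-12769956 on the minus strand for Igf2r and chr11:7213924-7214173 on the minus strand for Igfbp3. Capitals mark CAGAC on either strand, the core of the SMAD-binding element through which TGFb signalling reaches DNA.
Igf1: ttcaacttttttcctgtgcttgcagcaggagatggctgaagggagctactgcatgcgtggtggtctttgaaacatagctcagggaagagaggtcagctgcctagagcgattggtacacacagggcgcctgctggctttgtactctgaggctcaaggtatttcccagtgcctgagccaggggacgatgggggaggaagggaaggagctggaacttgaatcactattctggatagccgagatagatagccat
Igf2r: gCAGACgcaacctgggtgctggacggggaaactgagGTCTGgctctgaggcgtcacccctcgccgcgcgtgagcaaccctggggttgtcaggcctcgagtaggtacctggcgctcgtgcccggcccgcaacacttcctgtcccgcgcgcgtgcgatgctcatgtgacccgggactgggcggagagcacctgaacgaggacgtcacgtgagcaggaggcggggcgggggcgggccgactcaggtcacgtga
Igfbp3: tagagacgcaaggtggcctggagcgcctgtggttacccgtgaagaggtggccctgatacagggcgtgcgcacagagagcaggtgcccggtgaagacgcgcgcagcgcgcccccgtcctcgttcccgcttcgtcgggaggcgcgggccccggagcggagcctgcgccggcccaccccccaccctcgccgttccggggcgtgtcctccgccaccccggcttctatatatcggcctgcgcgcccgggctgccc
The Igf2r window holds CAGAC 2 times, and the windows of Igf1 and Igfbp3 hold it 0 times. The same motif lies in 42.2% of all 32851 windows of this length. The pattern TGANTCA, which includes the AP-1 site TGA(C/G)TCA and does not overlap CAGAC, is found 1 time in the Igf1 window. That match reads tgaatca, which is not the AP-1 site itself. The pattern is found 0 times in both others and in 6.75% of all windows. The windows of Igf2r and Igfbp3 are rich in the dinucleotide CG, with 27 and 32, more than 91.4% and 95.4% of all windows, while that of Igf1 holds 5, more than 44.4%. These matches describe the letters only.

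Without beta6, macrophages showed higher Igf2r and Igf1 than wild type, and with TGFb1 the pair parted: Igf2r lay near the wild type level and Igf1 did not. Igfbp3, a carrier of IGFs in plasma and tissue, rose in beta6 null, a call close to the threshold that held in 11 of 27 alternatives, and with TGFb1 it differed from beta6 null by -0.12 (SE 0.37), a sign that turned in 2 of them. Igf1r, the signalling receptor, averaged 0.12, 0.12 and 0.22 in wild type, beta6 null and TGFb1 arrays and did not pass in any comparison. Igfbp5, Igfbp6 and Igfbp7 did not pass either, and Igf2, Igfbp2 and Igfbp4 had too few values to be tested.

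**Figure D1:**
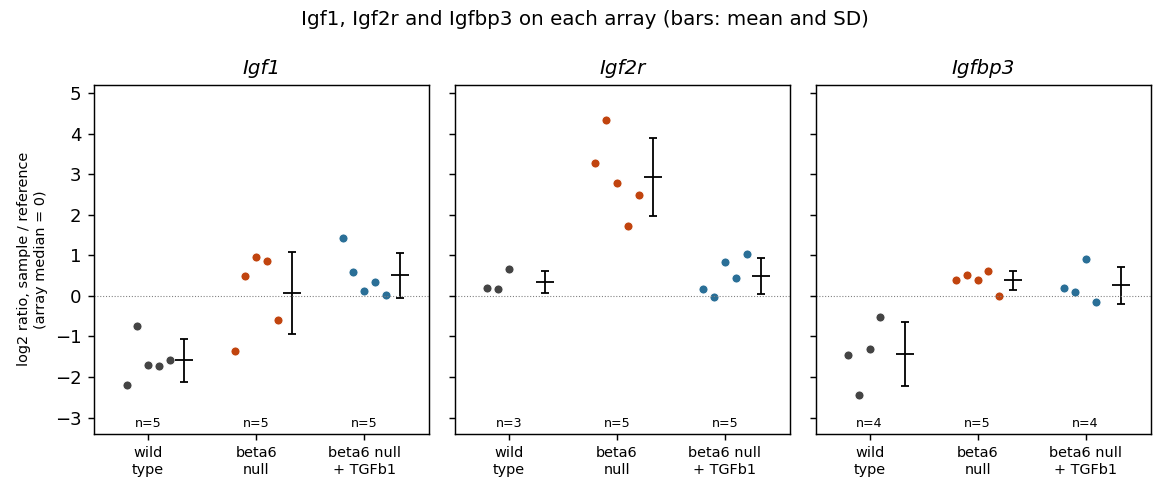
Log2 ratio of Igf1, Igf2r and Igfbp3 (y axis, sample over reference, array median at 0) on each array of the wild type, the beta6 null and the TGFb1 group (x axis). Points are arrays, horizontal marks with bars are the mean and SD, and n counts arrays with a value. The 5 beta6 null arrays of Igf2r, at 1.73 to 4.34, sit above all other arrays, while Igf1 and Igfbp3 are lowest in wild type.

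Among the ligands, Igf1 read -2.19, -0.75, -1.70, -1.72 and -1.59 on the wild type arrays, a mean of -1.59 ± 0.53 (SD, n = 5). In beta6 null it read -1.36, 0.49, 0.97, 0.85 and -0.60, a mean of 0.07 ± 1.01 (SD, n = 5). With TGFb1 it read 1.42, 0.58, 0.13, 0.35 and 0.03, a mean of 0.50 ± 0.56 (SD, n = 5). All 5 TGFb1 arrays lay above all 5 wild type arrays, and 4 of the 5 beta6 null arrays did. The other one, beta6 null replicate 1, lay between the wild type arrays, and this group spread most widely. The difference from wild type was 1.66 (SE 0.45) in beta6 null and 2.09 (SE 0.45) with TGFb1, and the TGFb1 group lay 0.43 (SE 0.45) above beta6 null, less than its standard error. These comparisons share groups and are not separate pieces of evidence.

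Igf2, the ligand that Igf2r clears, had a value on 9 of 15 arrays. It read -1.14, -0.95 and 0.33 on 3 wild type arrays, 2.78, 0.21, 2.22 and 0.27 on 4 beta6 null arrays, and 4.68 and 1.08 on 2 TGFb1 arrays. The wild type and beta6 null values overlap, since 2 of the beta6 null arrays lie below the highest wild type array. With 2 values in the TGFb1 group, Igf2 was left out of the test. Igf2 and Igf2r are both imprinted in the mouse, expressed from the paternal and the maternal copy.

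Among the receptors, Igf2r read 0.20, 0.16 and 0.66 on 3 wild type arrays, with no value on wild type replicates 1 and 2 (mean 0.34 ± 0.28, SD, n = 3). In beta6 null it read 3.28, 4.34, 2.78, 1.73 and 2.49 (mean 2.93 ± 0.97, SD, n = 5). With TGFb1 it read 0.16, -0.03, 0.83, 0.44 and 1.04 (mean 0.49 ± 0.45, SD, n = 5). Each of the 5 beta6 null arrays exceeded every array of both other groups, which overlapped each other. Igf2r in beta6 null exceeded wild type by 2.58 (SE 0.50), about 5.99-fold, and with TGFb1 it differed from beta6 null by -2.44 (SE 0.43). The TGFb1 and wild type groups were 0.15 apart (SE 0.50). The difference from wild type became 1.90 after the arrays were scaled to 1 spread and 1.90 with Xist as a covariate, and that of TGFb1 from beta6 null -1.77 and -1.71.

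The 3 wild type values of Igf2r all come from arrays whose title ends in 2, a suffix the labels do not explain. Among arrays with that suffix, wild type read 0.16 to 0.66, the 1 beta6 null array 2.49 and the 2 TGFb1 arrays 0.16 and 1.04. Among arrays with suffix 1, beta6 null read 1.73 to 4.34 on 4 arrays and TGFb1 -0.03 to 0.83 on 3, with no wild type value. Wild type and beta6 null can thus be set side by side in suffix 2 alone, with 1 beta6 null array.

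Markers of alveolar macrophages and single markers of other cell types also differed between the groups that Igf2r set apart. The array median over 15 alveolar macrophage markers ran from -2.33 to -1.79 in beta6 null, below -1.54 to -0.39 in wild type and -0.96 to -0.61 with TGFb1. Of these 15, 3 (Cidec, Fabp1 and Olr1) fell in beta6 null against wild type and 3 (Fabp1, Olr1 and Pparg) rose with TGFb1 against beta6 null. The median over 11 monocyte and interstitial macrophage markers ran from 0.08 to 1.49 in beta6 null, overlapping -0.39 to 0.24 in wild type and -0.27 to 0.66 with TGFb1, and 0 of the 10 tested passed in limma in beta6 null against wild type (2 at an unadjusted p under 0.05). Of 8 tested neutrophil markers 1 rose in beta6 null, S100a8 at 2.12 (SE 0.29, limma adjusted p = 0.00148), with list medians of -0.54 to 1.36 in beta6 null, -1.0 to 0.24 in wild type and -1.53 to 0.30 with TGFb1. Among these 8, 4 lay above 0 and 4 below in beta6 null against wild type. Of 12 tested markers of lung epithelium 2 fell in beta6 null (Epcam and Krt19) and rose with TGFb1 against beta6 null, while 1, the surfactant protein gene Sftpc, rose in beta6 null (2.18, SE 0.47, adjusted p = 0.0458). Most of the 12 went the other way from Epcam and Krt19. In beta6 null against wild type 8 lay above 0 and 4 below, and with TGFb1 against beta6 null 4 lay above and 8 below. The medians of this list overlapped, at -0.79 to 0.83 in beta6 null, -1.15 to -0.11 in wild type and -0.84 to -0.28 with TGFb1. Of 7 tested dendritic cell markers 0 passed by limma in beta6 null against wild type (3 at an unadjusted p under 0.05, and 6 above 0). With TGFb1 against beta6 null 1 of them, Itgae, fell (difference -3.89, SE 0.73, adjusted p = 0.0332). The list medians were 0.46 to 1.85 in beta6 null, -0.87 to 0.62 in wild type and -0.19 to 0.68 with TGFb1. Of 12 tested T, NK and B cell markers 0 passed by limma in beta6 null against wild type (4 at an unadjusted p under 0.05), with list medians of 0.08 to 1.23 in beta6 null, -0.36 to 0.06 in wild type and -0.39 to 0.15 with TGFb1. Xist, which coats the inactive X chromosome of female cells, read -2.46 to 0.88 in beta6 null, -4.14 to -2.37 in wild type and -3.48 to -2.27 with TGFb1. The labels give no sex, and whether the sex of the mice differed between the groups was not tested. The part of cell makeup in the levels of Igf2r was not tested.

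Igf1r was read by 2 probes with values on all 15 arrays. Their ratios differed, with wild type means of -0.50 on the first and 0.75 on the second. Averaged over both probes, Igf1r read 0.12 ± 0.31 in wild type (SD, n = 5). Its mean was 0.12 ± 0.36 (n = 5) in beta6 null and 0.22 ± 0.17 (n = 5) in the TGFb1 group. The groups overlap almost fully. The first probe differed by -0.01 (SE 0.38) between beta6 null and wild type and the second by -0.00 (SE 0.23). Against beta6 null, the TGFb1 group was 0.40 (SE 0.38) higher on the first probe and lower on the second (difference -0.20, SE 0.23), so the probes went opposite ways within their errors. By limma, the adjusted p of the averaged probes was 0.996, 0.892 and 0.960 in the comparisons of beta6 null with wild type, TGFb1 with beta6 null and TGFb1 with wild type.

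**Figure D2:**
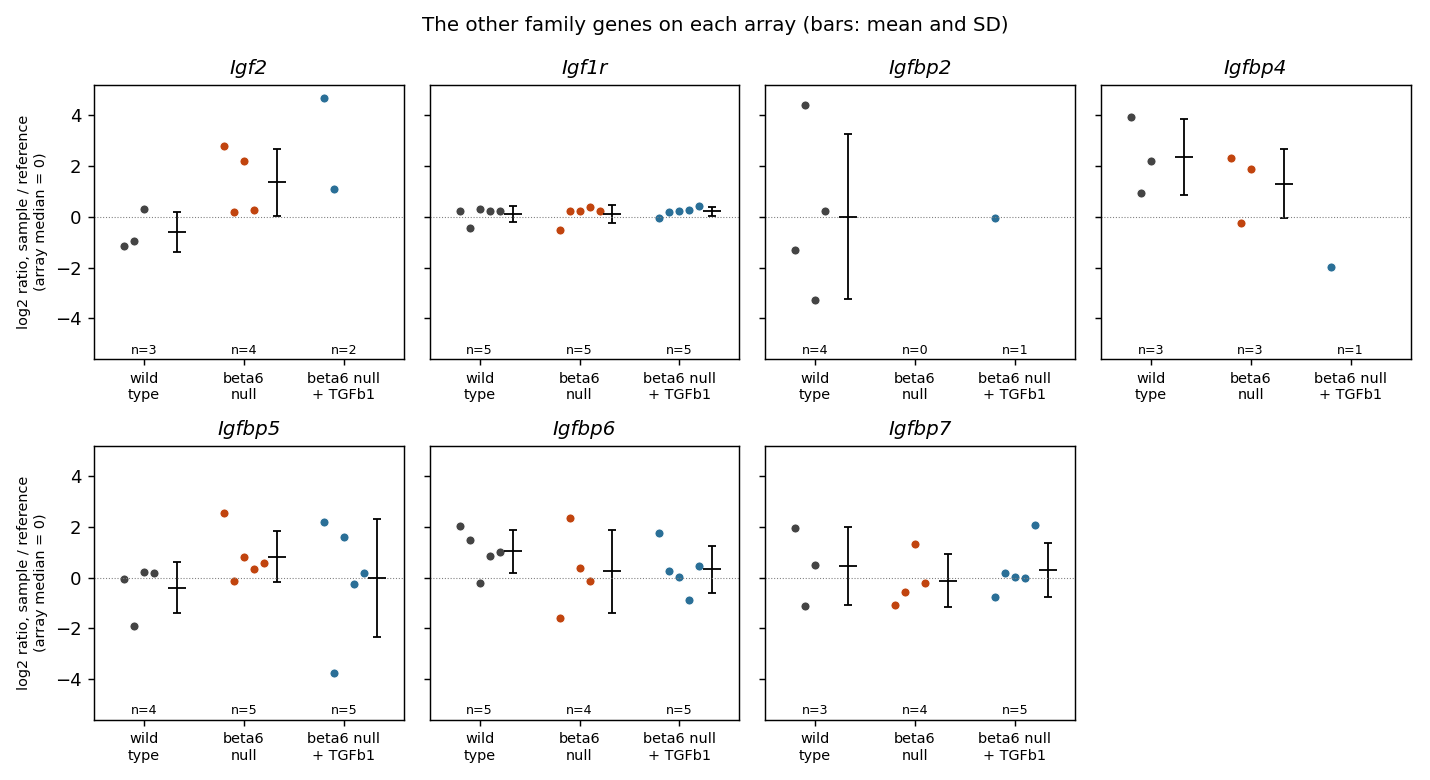
Log2 ratio (y axis, sample over reference) of the other 7 family genes on each array of the 3 groups (x axis). Points are arrays, marks with bars are the mean and SD where at least 3 arrays had a value. Igf1r is tight around 0.12 to 0.22, while the binding proteins scatter over several log2 units and Igfbp2 has no beta6 null value.

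Among the binding proteins, Igfbp3 was the 1 of the 5 tested members (Igf1r, Igfbp3, Igfbp5, Igfbp6 and Igfbp7) that passed in beta6 null against wild type, where 0.948% of the 13285 features tested were called. It read -1.45, -2.44, -1.30 and -0.53 in wild type, with no value on replicate 2 (mean -1.43 ± 0.79, SD, n = 4). In beta6 null it read 0.38, 0.52, 0.40, 0.62 and 0.00 (mean 0.38 ± 0.23, SD, n = 5). With TGFb1 it read 0.20, 0.10, 0.91 and -0.15, with no value on replicate 1 (mean 0.26 ± 0.45, SD, n = 4). Every array of both beta6 null groups lay above every wild type array.

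Igfbp3 rose by 1.81 in beta6 null (SE 0.37, limma adjusted p = 0.0409), about 3.52-fold. The TGFb1 group stood 1.69 above wild type (SE 0.39) and did not pass over all features (adjusted p = 0.652), and was 0.12 below beta6 null (difference -0.12, SE 0.37, adjusted p = 0.913). The call over all features was close to the threshold: the adjusted p was 0.0249 to 0.509 over 27 alternatives and passed in 11 of them, with a rise of 1.48 to 2.11 in all. It ended without any 1 of wild type replicates 1, 3 and 4, without any 1 of the 5 beta6 null arrays, and without TGFb1 replicate 2, 3 or 5 (the adjusted p was then at most 0.116).

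Within a title suffix, wild type and beta6 null values of Igfbp3 can be set side by side on few arrays only. The 1 wild type array with suffix 1 and a value read -1.45 against 0.38 to 0.62 on 4 beta6 null arrays, and the 3 with suffix 2 read -2.44 to -0.53 against 0.00 on the 1 beta6 null array. With the suffix as a block the rise was 1.63 (SE 0.44, limma adjusted p = 0.188). The part of the suffix in these values was not tested further. Igfbp3 is known from stromal and endothelial cells. Of 11 tested fibroblast and smooth muscle markers 0 passed by limma in beta6 null against wild type (0 at an unadjusted p under 0.05), with array medians of -0.60 to 0.48 in wild type and -0.16 to 1.30 in beta6 null. Of 5 tested endothelial markers 2 passed, both lower in beta6 null (Eng and Flt1). Of all 5, 2 lay above 0 and 3 below. Array medians over the 10 endothelial markers with a probe were 0.13 to 2.03 in wild type and -0.69 to 0.79 in beta6 null. Whether other cells contributed to Igfbp3 was not tested.

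Igfbp5, a binding protein that also attaches to matrix, had values on 14 arrays. Its wild type arrays ran from -1.89 to 0.21, its beta6 null arrays from -0.12 to 2.54 and its TGFb1 arrays from -3.75 to 2.18, and the difference of 1.23 in beta6 null (SE 0.98) had an adjusted p of 0.655. Igfbp6, which prefers IGF2, ran from -0.22 to 2.02, from -1.60 to 2.36 and from -0.87 to 1.74 in wild type, beta6 null and TGFb1 arrays, with a difference of -0.79 in beta6 null (SE 0.71, adjusted p = 0.696). Igfbp7, a low-affinity relative made by endothelium, ran from -1.10 to 1.97, from -1.06 to 1.34 and from -0.78 to 2.06 in the same order of groups, with a difference of -0.58 in beta6 null (SE 0.82, adjusted p = 0.818). All 3 overlap between every pair of groups. Their standard errors of 0.67 to 0.98 were larger than the 0.37 to 0.45 of Igf1 and Igfbp3.

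Igfbp2 and Igfbp4, soluble carriers of IGFs, were mostly without a value. Igfbp2 read -1.31, 4.40, -3.28 and 0.24 on 4 wild type arrays and -0.04 on 1 TGFb1 array, and it had no value on any beta6 null array. Igfbp4 read 3.93, 0.96 and 2.19 on 3 wild type arrays, 2.31, -0.24 and 1.87 on 3 beta6 null arrays and -1.97 on 1 TGFb1 array. Why a spot had no value is not stated, so a missing value is not read as absence. Igfbp2 and Igfbp5 are adjacent protein-coding genes in RefSeq, as are Igfbp1, which is no member here, and Igfbp3.

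In TGFb1 against beta6 null, 0 of the 5 tested members passed by limma (0 at an unadjusted p under 0.05), where 0.708% of all features were called. In TGFb1 against wild type 0 passed (Igfbp3 alone at an unadjusted p under 0.05), where 0% of all features were called by limma and 6.29% had an unadjusted p under 0.05. Counting all 7 members with at least 3 values in every group, 2 did not overlap between beta6 null and wild type (Igf2r and Igfbp3), where 5.11% of all features did not overlap. In TGFb1 against beta6 null this held for 1 (Igf2r), against 8.24% of all features, and in TGFb1 against wild type for 2 (Igf1 and Igfbp3), against 2.87%. Igf1 and Igf2r were chosen for these patterns, so nothing is read from the counts.

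**Figure D3:**
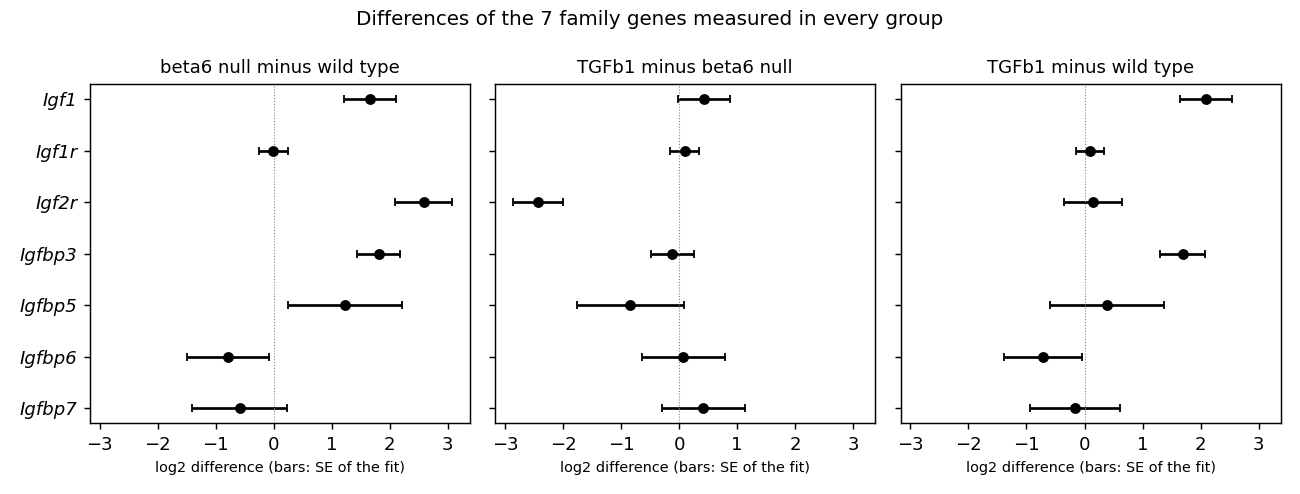
Log2 differences between groups (x axis) of the 7 family genes with at least 3 values in every group (y axis), 1 panel for each comparison. Points are the fitted differences and bars their SE. Igf2r stands at 2.58 and -2.44 in the first and second panel and at 0.15 in the third, while Igf1 and Igfbp3 stand at 1.66 and 1.81 in the first and at 2.09 and 1.69 in the third.

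Igf2r shares its lysosomal sorting work with M6pr, the cation-dependent mannose 6-phosphate receptor, and M6pr ran the other way. The wild type arrays read 1.04, 0.73, 0.89, 0.58 and 0.80, the beta6 null arrays -1.19, -0.37, -0.10, -0.23 and -0.41, and the TGFb1 arrays 0.53, 0.33, 0.54, 0.40 and 0.61. All 5 beta6 null arrays lay below every array of both other groups. M6pr fell by 1.27 in beta6 null against wild type (SE 0.24, limma adjusted p = 0.0202, and 0.0012 to 0.425 over 27 alternatives, of which 20 passed). With TGFb1 it was 0.94 above beta6 null (SE 0.24) without passing (adjusted p = 0.0848), and it passed in 3 of 27 alternatives, with array weights (0.0102), without the 2 widest arrays (0.0431) and without wild type replicate 2 (0.0483). The call in beta6 null ended without wild type replicate 1, 3 or 5 (adjusted p = 0.0571, 0.0611 and 0.0597), with the arrays of both groups alone (0.146), with a block for the suffix in the titles (0.0556), with the arrays numbered apart left out (0.0602) and with Xist as a covariate (0.425).

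**Figure D4:**
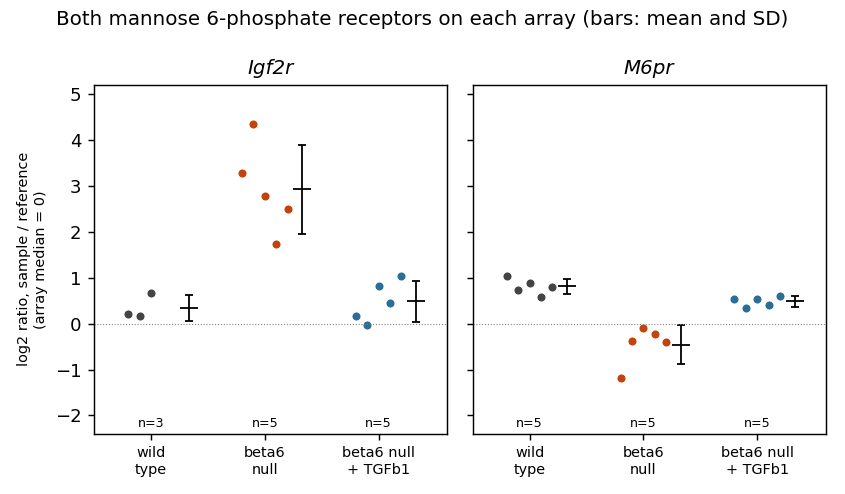
Log2 ratio (y axis, sample over reference) of Igf2r and M6pr on each array of the wild type, the beta6 null and the TGFb1 group (x axis). Points are arrays and marks with bars are the mean and SD. The beta6 null arrays are the highest for Igf2r and the lowest for M6pr, with M6pr at -1.19 to -0.10 in that group.

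Of the 26 tested genes of mannose 6-phosphate sorting, M6pr was the 1 that passed in beta6 null against wild type, none rose, and 7 had an unadjusted p under 0.05, where 0.948% of all features were called and 11.5% had an unadjusted p under 0.05. Their median difference was 0.38, against -0.05 over all features. In TGFb1 against beta6 null 0 passed by limma, with 5 at an unadjusted p under 0.05, where 1990 of the 13285 features had one, and a median of 0.07, against 0.12 over all features.

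Downstream of Igf1r, 0 of 32 tested genes of IGF receptor signalling passed in any of the 3 comparisons by limma, with 2, 3 and 1 at an unadjusted p under 0.05. Of the 13285 features, 1527, 1990 and 836 had such a p in beta6 null against wild type, TGFb1 against beta6 null and TGFb1 against wild type, and the counts of this and the following lists are to be read against these. Their median difference was 0.09 in beta6 null against wild type, -0.17 in TGFb1 against beta6 null and 0.00 in TGFb1 against wild type. Pdpk1, the kinase that activates AKT, was at -1.62 in beta6 null (SE 0.56, adjusted p = 0.254), and Pik3ca, a catalytic subunit of PI3 kinase, at -1.44 in TGFb1 against wild type (SE 0.41, adjusted p = 0.761). Among 21 brakes on this pathway 0 passed either, with 3, 0 and 0 at an unadjusted p under 0.05. Trib1, a pseudokinase, was at -2.14 in beta6 null (SE 0.72, adjusted p = 0.253) and Spry1, an inhibitor of receptor kinase signalling, at -0.77 (SE 0.29, adjusted p = 0.318).

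Among 20 tested proteases and partners of the binding proteins 0 passed by limma, with 1, 5 and 1 at an unadjusted p under 0.05 in the same order of comparisons. Ctsl, a lysosomal protease that can cut binding proteins, was at 1.77 in beta6 null (SE 0.60, adjusted p = 0.243), and Cav1, the coat protein of caveolae, at 1.88 in TGFb1 against beta6 null (SE 0.60, adjusted p = 0.162). On the list for the growth hormone axis, which drives Igf1 in liver, 0 of 11 passed by limma, with 1, 1 and 0 at an unadjusted p under 0.05. Csf1 alone made up these counts. It is the growth factor of macrophages, also on the list of their other growth factors, and not a gene of the hormone axis itself. Csf1 was nearest at 1.47 in beta6 null (SE 0.36, adjusted p = 0.0795), and Stat5a was at -1.18 in TGFb1 against wild type (SE 0.64, adjusted p = 0.820).

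Other growth factors of macrophages did not pass either: 0 of 16 by limma, with 3, 3 and 1 at an unadjusted p under 0.05, and Bmp2 at -0.79 in TGFb1 against beta6 null (SE 0.31, adjusted p = 0.237). Of 18 imprinted genes beside Igf2 and Igf2r 0 passed, with 0, 2 and 0 at an unadjusted p under 0.05. Sgce, a sarcoglycan, was at -2.01 (SE 0.77, adjusted p = 0.242) and Nap1l4, a histone chaperone gene, at 0.94 (SE 0.37, adjusted p = 0.244), both in TGFb1 against beta6 null. Of 3 tested genes of the insulin and relaxin family 0 passed, with 1, 1 and 2 at an unadjusted p under 0.05: Insl6 was at 1.63 (SE 0.51, adjusted p = 0.761) and Rxfp2, a relaxin-family receptor, at -0.56 (SE 0.26, adjusted p = 0.786) in TGFb1 against wild type. Among 9 relatives of the binding proteins and IGF mRNA-binding proteins 0 passed and 0 had an unadjusted p under 0.05, with Ccn2, a matrix protein induced by TGFb, at 1.08 (SE 0.67, adjusted p = 0.546) and Igfbpl1 at -0.84 (SE 0.54, adjusted p = 0.561) in beta6 null.

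The genes nearest to each pattern were found by the root mean square difference between profiles over shared arrays, each centred on its own mean. Of 10095 genes sharing at least 12 arrays with Igf1, the 5 nearest were Ccdc59 (0.44 log2 units), Tsga8 (0.64), the calcium-binding protein gene S100a6 (0.65), Insl6 (0.67) and Igfbp3 (0.68), against a median of 1.34 over all. S100a6, measured on all 15 arrays, averaged 0.33 ± 0.67, 2.08 ± 0.57 and 1.47 ± 0.62 (SD, n = 5 each) in wild type, beta6 null and TGFb1 arrays, low in wild type as Igf1 was. Insl6 averaged -0.04 ± 0.27 (SD, n = 4), 1.36 ± 1.02 (n = 5) and 1.59 ± 0.76 (n = 5) in the same order.

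Of 8784 genes sharing at least 12 arrays with Igf2r, the nearest were the DNA methyltransferase gene Dnmt3a (0.50), the immunoglobulin heavy chain gene Ighm (0.64), the secreted antiprotease gene Wfdc18 (0.72), Ctsk (0.72), which encodes a lysosomal collagenase, and the plexin gene Plxnb2 (0.72), against a median of 1.55. Dnmt3a had a wild type mean of 0.22 ± 0.49 (SD, n = 4), a beta6 null mean of 2.33 ± 0.80 (n = 5) and a TGFb1 mean of 0.40 ± 0.29 (n = 5), close to the means of Igf2r. Ctsk averaged -0.63 ± 1.12, 2.04 ± 0.46 and 0.47 ± 0.45 (SD, n = 5 each), with its TGFb1 level between the others. These genes share the arrays, the reference and the centring with Igf1 and Igf2r, and likeness was measured over 12 to 15 arrays.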

How the data were processed

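The measurements were 15 spotted 2-colour arrays of alveolar macrophage RNA, 5 for each of 3 groups taken from the labels. The authors deposited a log ratio for every probe on every array, read here as log2 ratios. Their background correction and normalization are not given in the sources used here. Of 17225 probes, 18 with control names were left out. Probes were named from the platform annotation, with symbols updated by Entrez ID through RefSeq (GRCm38.p6), and probes of 1 gene were averaged. Arrays were centred on their median, and features needed a value on 3 or more arrays in each group. The 13285 that had them were fitted with limma 3.58.1 in R 4.3.3 (3 group means, 15 arrays, no covariate). P-values were adjusted by Benjamini-Hochberg over all features of a comparison (threshold 0.05), and 7 of the 10 members passed that filter. Precision is limited by the number of arrays. On simulated data with genes shifted in beta6 null by 1, 2, 3 and 4 log2 units (50 each), the comparison with wild type recovered 14%, 46%, 80% and 86%. That of TGFb1 with beta6 null recovered 4%, 48%, 82% and 86%. The simulated noise was independent between genes, so recovery on the measured arrays may differ.

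The members, lists, tests and alternatives were chosen with earlier results of these data known. Named were every member, the genes of each list that passed (up to 4 in each comparison), or else the 2 with the smallest p and a value on 4 or more arrays in each group, and the 5 genes nearest in pattern to Igf1 and Igf2r. Xist and the single cell type markers named fall outside this rule and were chosen after values were seen. The other settings tried were the centring and spread of arrays, the filter, probes kept apart, array weights, the title suffix as a block, a covariate, and leaving out arrays.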

Additional observations from a re-analysis of the deposited data

Results flagged for a closer look

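Chance marks about 1 in 20 groups as holding an array far from the others. Of 27 groups of 4 or 5 values among the family genes and the probes of Igf1r, 4 were marked. Averaged Igf1r and its probes share values, so these groups are not independent and nothing is read from the count. Averaged over its probes, Igf1r read -0.43 on wild type replicate 2, where the other 4 arrays read 0.22 to 0.32, and -0.52 on beta6 null replicate 1, where the others read 0.22 to 0.39. The first Igf1r probe by itself read -1.89 on wild type replicate 2, against -0.43 to 0.06 on the others. These are the 2 arrays with the widest values of the series. Igfbp5 read -1.89 on wild type replicate 3, against -0.06 to 0.21 on the other 3 arrays with a value.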

How the results depend on the processing

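Igf1 kept its direction in each of 27 alternatives, at 1.42 to 2.23 in beta6 null against wild type, 1.86 to 2.39 in TGFb1 against wild type and 0.07 to 0.74 in TGFb1 against beta6 null. Igf2r kept its direction in 26, at 1.90 to 2.88, 0.01 to 0.31 and -2.87 to -1.71. Both genes were chosen for their patterns, so a kept direction is no test of them. Several alternatives could not move a difference. Leaving out a TGFb1 array kept Igf1 at 1.66 in beta6 null against wild type. Leaving out wild type replicate 1 or 2, which lack an Igf2r value, kept Igf2r at 2.58. For Igf2r, the differences of beta6 null from wild type and of TGFb1 from beta6 null shrank with equal spread of the arrays (1.90 and -1.77). With Xist as a covariate they shrank too (1.90 and -1.71). In both settings each difference moved by more than the SD pooled over the groups, and in the other 24 of 26 by less. Igf2r had too few wild type values for the filter of 4 arrays. Without 1 array at a time, Igf2r ran from 2.23 to 2.88 against wild type and from -2.74 to -2.08 with TGFb1. The rise of Igfbp3 lost its call, leaving 0 tested members, with no filter (1.81, adjusted p = 0.0572), with the suffix as a block (1.63, 0.188), with the 10 arrays of both groups alone (1.81, 0.146), with Xist (1.99, 0.509) and without the 2 arrays numbered apart (1.76, 0.125). Without 1 array at a time it ran from 1.48 to 2.11, with 0 to 1 members called. The Igfbp3 difference between TGFb1 and beta6 null changed sign without the 2 arrays numbered apart (0.076) and without TGFb1 replicate 5 (0.017), and was otherwise as low as -0.34 without 1 array at a time.

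The count of 126 called features in beta6 null against wild type became 76 with quantile normalization, 61 with equal spread, 422 with array weights, 64 with the suffix as a block, 45 with the arrays of both groups alone, 0 with Xist and 66 without the arrays numbered apart, and 63 to 154 without 1 array. The count of 94 in TGFb1 against beta6 null became 15, 11, 621, 43, 0 and 27 in the same settings except that with both groups alone, 142 with values on at least 4 arrays, 287 without the 2 widest arrays and 23 to 311 without 1 array. The count of 0 in TGFb1 against wild type became 1 with array weights, 1 with both groups alone and 0 to 1 without 1 array. The causes of these shifts were not tested. Igfbp5, Igfbp6, Igfbp7 and Igf1r passed in none of the alternatives. No paired analysis was possible because the labels number no replicates across groups.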

Other observations

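With a minimum of 1 value in every group and 4 in all, Igf2 and Igfbp4 could be fitted. Igf2 in beta6 null then exceeded wild type by 1.96 (SE 0.98, limma adjusted p = 0.529) and with TGFb1 by 3.47 (SE 1.17, adjusted p = 0.792). Igfbp4 differed by -4.33 between TGFb1 and wild type (SE 1.38, adjusted p = 0.792), a value that rests on 1 TGFb1 array. Neither passed in any comparison.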
